A study of Mus musculus with 3 samples.

Results

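The genes described here encode the proteins of the cytosolic ribosome. They were taken by symbol from the gene list of the files: every name that begins with Rpl or Rps, continues with a number and ends in at most a letter a, l, x or y and a digit, together with Rplp0, Rplp1, Rplp2 and Rpsa. Pseudogene names with "-ps" were left out, and a gene had to reach 100 unique molecular identifiers (UMIs, each standing for 1 captured transcript) over the 3 sections. Of 32285 features, 83 had such a name and 81 reached the minimum, 32 of the small 40S subunit and 49 of the large 60S subunit. The other 2 were Rpl10l, with no UMI in any section (exact upper 95% limits of 0.286, 0.219 and 0.318 UMIs per 1000000 non-mitochondrial UMIs in sham, I/R and SBP), and Rpl39l, with 2, 33 and 8 UMIs in the sham, I/R and SBP sections. The member with the fewest UMIs was Rpl7l1 with 3136 over the 3 sections, so none lay close to the minimum.

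A ribosome reads a messenger RNA with its small subunit and joins amino acids with its large subunit, and a cell has to supply the proteins of each subunit together with ribosomal RNA. Many ribosomal protein messengers begin with a run of pyrimidines at the cap, the 5′ terminal oligopyrimidine (TOP) tract, through which mTORC1 and the protein LARP1 control how much they are translated. In the heart, growth of the muscle under load goes with more ribosomes, and striated muscle has a protein of its own, RPL3L, that can stand in for RPL3. Messenger levels, which are what was measured here, are not levels of ribosomes or of translation.

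The data are Visium spatial libraries of 10 µm heart sections from C57BL/6 mice of 8 weeks, with 1 section from each of 3 groups. The sham mouse was given vehicle by gavage over 7 days and then had the operation without tying the artery. The I/R mouse was given vehicle over the same 7 days, and its left anterior descending coronary artery was tied for 30 min and then opened for 24 h. The SBP mouse was given Shexiang Baoxin Pill, a traditional Chinese medicine also sold as MUSKARDIA, over 7 days before the same 30 min of ischemia and 24 h of reperfusion. Each condition has 1 section, so condition, mouse and section cannot be told apart, no p-value is given, and every 95% interval covers counting error only.

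A spot records the RNA of a small piece of tissue and can hold several cells. After removal of spots with fewer than 200 detected genes there were 2234, 2082 and 1960 spots for sham, I/R and SBP, with 25118258, 30238530 and 21631280 UMIs. Mitochondrial genes took 48.6%, 44.3% and 46.3% of them. Levels below are therefore UMIs of a gene per 1000000 UMIs of genes that are not on the mitochondrial genome, written CPM. The 5 heart muscle markers Ttn, Pln, Myh6, Tnnt2 and Actc1 were present in all 3 sections, and their sum was 39041, 28375 and 32258 CPM in the sham, I/R and SBP sections. Neutrophil markers summed to 55.0, 433 and 219 CPM. The nuclear RNA Malat1 stood at 1011, 507 and 988 CPM and Gm42418, a feature that collects ribosomal RNA reads, at 5195, 2704 and 7003 CPM, so both were lowest in the I/R section. Fewer cells of a type and less RNA per cell cannot be told apart in spots. Sham shared 1565 spot barcodes with I/R and 1563 with SBP, and I/R and SBP shared 1205, since Visium slides carry a common barcode set.

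Annotated starts of a few of these genes are shown, some with the pyrimidine run for which the family is known and some without one there. RefSeq start sequences (GRCm38.p6) were found for 61 of the 81 genes. Each line gives 30 bases of the coding strand, which reads as the messenger does, 15 before the annotated start and 15 from it on. Capitals mark a run of 6 or more bases that begins with a C and goes on with C or T only. Its first C has to lie within 10 bases of the start. The first 3 are members with such a run, of which Rpl35 and Rps18 were among the 5 with the highest I/R over sham ratio. Rpl10 and Rpl41 were also among those 5 and have no such run, while Rpl31 has one and had the lowest ratio of all members but Rpl3l.
Rps6, chr4:86857353-86857382, minus strand: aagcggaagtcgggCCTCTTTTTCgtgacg
Rpl35, chr2:39005117-39005146, minus strand: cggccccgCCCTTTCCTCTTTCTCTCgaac
Rps18, chr17:33955651-33955680, minus strand: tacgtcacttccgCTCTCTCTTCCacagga
Rpl10, chrX:74270801-74270830, plus strand: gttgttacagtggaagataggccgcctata
Rpl41, chr10:128549154-128549183, minus strand: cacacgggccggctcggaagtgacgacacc
Rpl31, chr1:39367836-39367865, plus strand: cttcctcctcgCCTCCCCgtgacccggaag
Rpl3l, chr17:24727811-24727840, plus strand: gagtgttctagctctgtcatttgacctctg

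By this rule 30 of the 61 members (49.2%) had a pyrimidine run at an annotated start, against 19.6% of the 27025 genes of the table. A run whose first C lies more than 10 bases from the annotated start is not counted. The split thus depends on the annotated starts, and members without a run here may have one at another start. The letters CCGGAAG, the core bound by ETS factors, were found on either strand within 250 bases before to 50 after a start in 41.0% of members and 9.93% of all genes. AAGATGG, which is part of the YY1 motif and can overlap CCGGAAG by AAG, was in 16.4% of members and 7.28% of all genes. TATAAA was in 11.5% and 15.7%. The median log2 ratio of I/R over sham was 0.74 in members with the pyrimidine run and 0.64 in those without, and that of SBP over I/R was -0.37 and -0.31. Both kinds of members lay on the same side of 0 in their medians, and the gap between them was small beside the ratios.

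Ribosomal protein transcripts took a larger part of the I/R section than of the sham section, and the SBP section lay between. They made up 6.91% of non-mitochondrial UMIs in sham (95% interval 6.89 to 6.92), against 10.9% in I/R (10.9 to 11.0) and with 8.73% in SBP (8.72 to 8.75). On the log2 scale the I/R over sham ratio was 0.66 (1.58-fold), the SBP over I/R ratio was -0.33 (0.798-fold) and the SBP over sham ratio was 0.34 (1.26-fold). The first and the second of these share the I/R section, so a high value there enters both with opposite sign. The 2 subunits moved alike: the I/R over sham ratio was 0.66 for the 40S genes and 0.67 for the 60S genes, and the 60S to 40S ratio of UMIs was 1.38, 1.39 and 1.40 in sham, I/R and SBP. The order sham, SBP, I/R is also that of the summed neutrophil, red blood cell and B and T cell markers. It is the reverse of that of the summed cardiomyocyte markers, though not of Tnnt2 and Actc1 by themselves. The other sums had neither order. Macrophage markers were at 586, 722 and 551 CPM in sham, I/R and SBP, and fibroblast markers at 1710, 1471 and 1240. Smooth muscle markers were at 617, 426 and 231 CPM and endothelium markers at 1530, 1377 and 1355. The part of these cells in the shares over whole sections was not tested.

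Gene by gene the family was uniform. A gene was called higher or lower when its CPM differed by 0.32 or more on the log2 scale and the 95% counting interval of the ratio left out 0. In I/R over sham, 78 of 81 members were called higher, beside 30.2% of the 11595 genes with 100 or more UMIs, and only Rpl3l was called lower, beside 13.1%. In SBP over I/R no member was called higher, beside 7.32% of all genes, and 43 were called lower, beside 23.2%. In SBP over sham 46 were called higher, beside 10.1%, and Rpl3l alone lower, beside 7.72%. Of the members without a call, Rpl24 and Rpl31 were on the high side in I/R over sham, 37 were on the low side and Rpl3l on the high side in SBP over I/R, and 34 were on the high side in SBP over sham. Apart from Rpl3l, every member thus stood lowest in sham, between in SBP and highest in I/R, which was the order of 35.7% of all genes tested.

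The members also lay closer together than other genes did. Their median log2 ratios were 0.69, -0.33 and 0.35 in I/R over sham, SBP over I/R and SBP over sham, beside 0.13, -0.11 and 0.02 over all genes tested and -0.14, 0.08 and -0.02 over the 514 other genes with 10000 or more UMIs. Their interquartile ranges were 0.24, 0.14 and 0.12, beside 0.59, 0.44 and 0.35 for all genes, whose lower counts add spread, and 0.63, 0.36 and 0.31 for the 514. With TMM factors, which centre the bulk of genes, log2 ratios moved by -0.12 in I/R over sham and by 0.11 in SBP over I/R. The number called lower in SBP over I/R was then 16 of 81 beside 15.5% of all genes, so this count was near the background. With these factors Rpl24, Rpl31, Rpl36 and Rps15 changed to the high side in SBP over I/R.

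**Figure D1:**
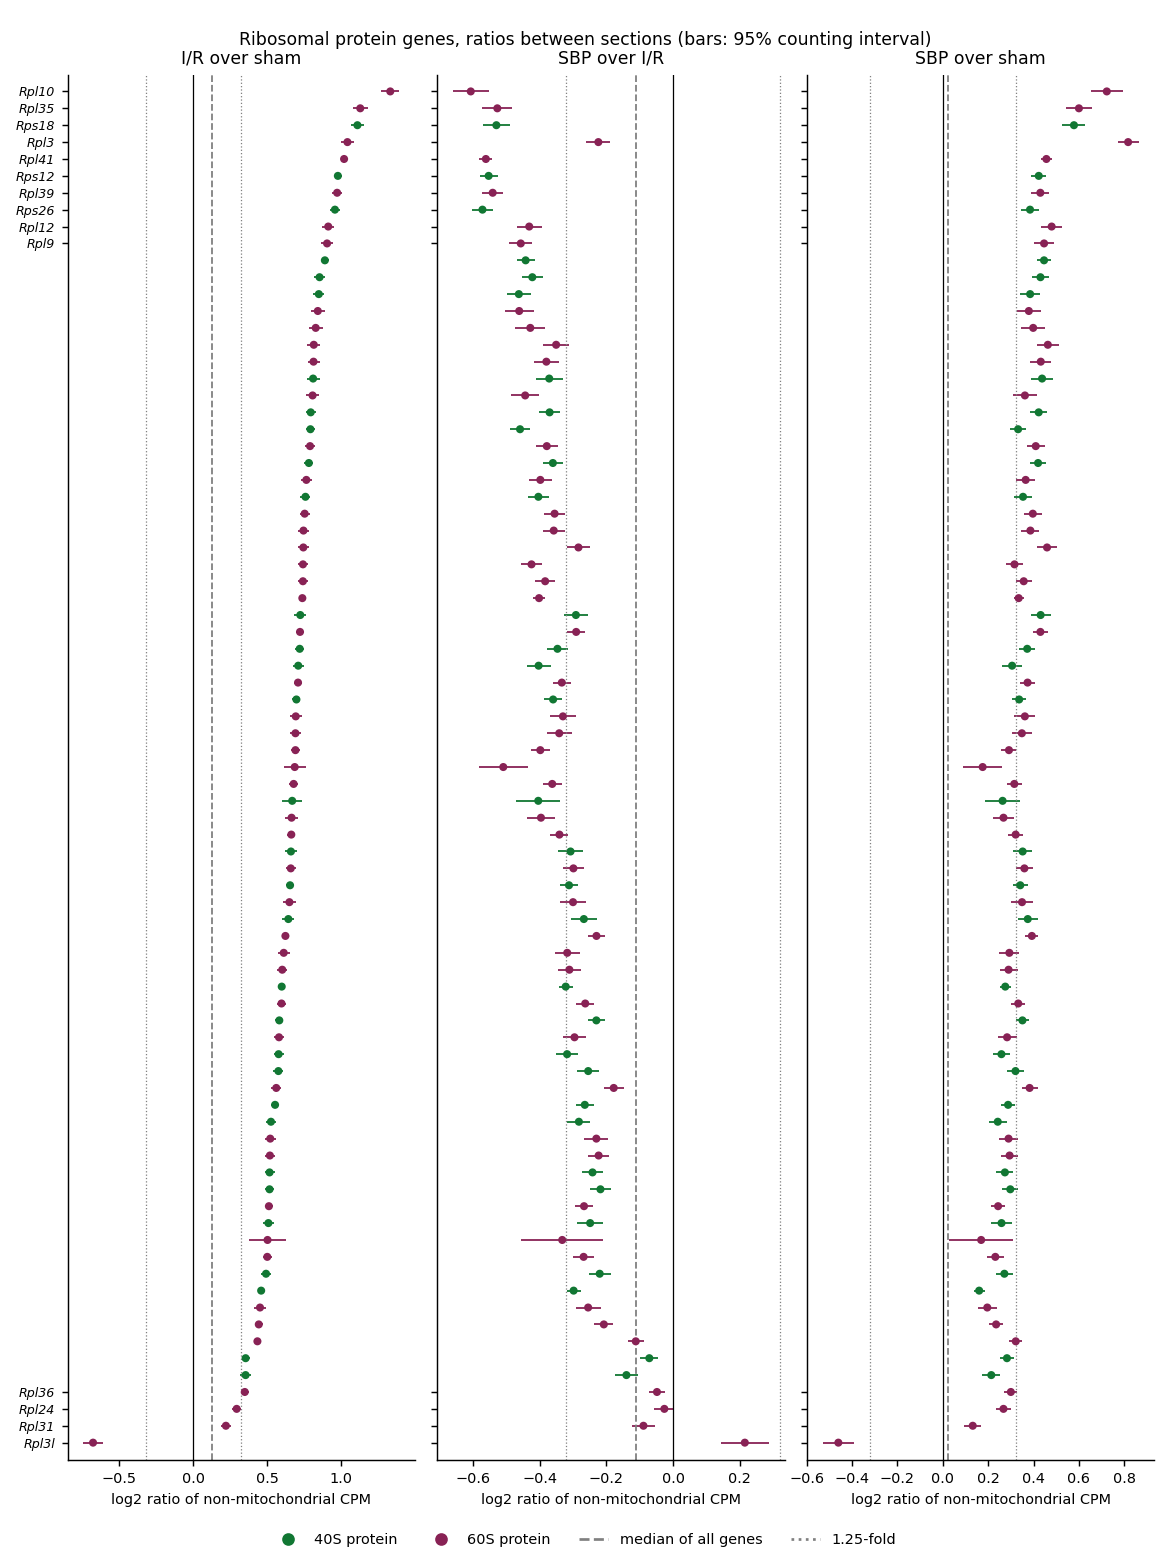
Log2 ratios of CPM between sections (x axes) for the 81 ribosomal protein genes (y axis, ordered by I/R over sham, with names at the upper and lower end), with 95% counting intervals as bars, 40S genes in green and 60S genes in purple. The dashed line is the median of all genes tested and the dotted lines mark the size a call needs, 0.32 on the log2 scale; Rpl3l stands alone at the bottom at -0.68 in I/R over sham while the other 80 lie above 0.

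The highest I/R over sham ratio belonged to Rpl10 (ENSMUSG00000008682, X chromosome of GRCm38, 74270812 to 74273135), whose product completes the late 60S subunit near the peptidyl transferase centre. Rpl10 was at 215, 540 and 355 CPM in the sham, I/R and SBP sections, a log2 ratio of 1.33 (1.27 to 1.39) in I/R over sham and of -0.61 (-0.66 to -0.55) in SBP over I/R, the lowest of all members. A processed copy, Rpl10-ps3, was counted separately at 71.0, 103 and 104 CPM, so reads of the 2 may be split between them. Rpl35 (chromosome 2, 39001580 to 39005624), a protein near the exit of the nascent chain tunnel, was at 334, 729 and 506 CPM, a log2 ratio of 1.13 in I/R over sham. Rps18 (chromosome 17, 33951999 to 33956001), a protein of the head of the small subunit, was at 424, 915 and 633 CPM and had a ratio of 1.11. Rpl41, the smallest protein of the ribosome, was at 1913, 3874 and 2624 CPM, a ratio of 1.02. In all 4 the I/R section stood highest and the SBP section between.

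Besides Rpl10, the members with the lowest SBP over I/R ratios were Rps26, Rpl41, Rps12 and Rpl39. Rps26, which lies at the messenger exit of the small subunit, was at 786, 1525 and 1026 CPM in the sham, I/R and SBP sections, a log2 ratio of -0.57 in SBP over I/R. Rps12 was at 1063, 2091 and 1425 CPM and Rpl39, a protein that lines the exit tunnel, at 721, 1414 and 972, with ratios of -0.55 and -0.54. Each of the 3 was close to the upper end of I/R over sham too, and Rpl12, a protein of the stalk base at 546, 1026 and 761 CPM, was among the 5 highest of SBP over sham with a ratio of 0.48.

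At the other end, some members had I/R over sham ratios well under the family's median. Rpl31 was at 891, 1039 and 977 CPM in the sham, I/R and SBP sections, log2 ratios of 0.22 and -0.09. Rpl24 was at 1052, 1290 and 1266 CPM, and its SBP over I/R ratio of -0.03 was the only one in the family with an interval that includes 0. Rpl36 (1497, 1905 and 1842 CPM) and Rps15 (1287, 1645 and 1566 CPM) each had a ratio of 0.35. In Rpl24, Rpl36 and Rps15 the SBP section was thus near the I/R section, with ratios between them from -0.07 to -0.03. Rps29 was at 2158, 2966 and 2411 CPM, and its SBP over sham ratio of 0.16 was among the 5 lowest.

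The acidic stalk that calls elongation factors to the ribosome is built from Rplp0, Rplp1 and Rplp2. They were at 1255, 1898 and 1581 CPM (Rplp0), at 2442, 4068 and 3078 CPM (Rplp1) and at 1065, 1739 and 1379 CPM (Rplp2) in sham, I/R and SBP. Their I/R over sham log2 ratios of 0.60, 0.74 and 0.71 lay near the family's median. Rpl5 and Rpl11, which with 5S RNA hold back Mdm2 when ribosome building is disturbed, were at 618, 1035 and 850 CPM and at 705, 1197 and 908 CPM, ratios of 0.74 and 0.76. Small-subunit proteins with known other roles followed the same order. Rps6, the substrate of S6 kinase, was at 582, 961 and 785 CPM. Rps3, which also acts in DNA repair, was at 465, 815 and 630 CPM. Rpsa, known also as the laminin receptor, was at 1894, 2865 and 2292 CPM. Rps27a, made as a fusion with ubiquitin, was at 905, 1490 and 1171 CPM and Rps19, altered in Diamond-Blackfan anemia, at 851, 1474 and 1140 CPM. The I/R over sham ratios of these genes lay between 0.60 and 0.81.

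Rpl3l was the exception, and it went opposite to its paralogue Rpl3. Rpl3l (ENSMUSG00000002500, chromosome 17, 24727820 to 24736143) was at 327, 205 and 238 CPM in the sham, I/R and SBP sections, a log2 ratio of -0.68 (-0.74 to -0.61) in I/R over sham, 0.22 (0.14 to 0.29) in SBP over I/R and -0.46 in SBP over sham. Rpl3 (ENSMUSG00000060036, chromosome 15, 80077791 to 80091868), the form made in all tissues, was at 479, 986 and 844 CPM, ratios of 1.04 (1.0 to 1.08), -0.22 and 0.82. The sham section stood highest for Rpl3l and lowest for Rpl3. Rpl3l UMIs were 40.6% of those of the pair in sham (39.7 to 41.5), against 17.2% in I/R (16.7 to 17.7) and with 22.0% in SBP (21.3 to 22.7). Rpl3 also had the highest SBP over sham ratio of the family, and with 844 CPM its SBP level was nearer to I/R than to sham.

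The pairs of Rpl22, Rps27 and Rpl7 shifted far less. Rpl22l1 and Rpl22 stood at 168, 271 and 190 CPM and at 424, 760 and 552 CPM, and Rpl22l1 made 28.4%, 26.3% and 25.6% of the pair in sham, I/R and SBP. Rps27l, a target of p53, and Rps27 were at 206, 327 and 247 CPM and at 928, 1594 and 1241 CPM, and the Rps27l share was 18.2%, 17.0% and 16.6%. Rpl7l1 and Rpl7 were at 63.0, 89.2 and 70.8 CPM and at 516, 817 and 621 CPM, with a share of 10.9%, 9.84% and 10.2% for the first. In these 3 pairs both genes stood highest in I/R, and the share moved by under 3 points. Rpl39l, a form known from the testis, took 0.021% of the UMIs of Rpl39l and Rpl39, 0.14% and 0.071% in the sham, I/R and SBP sections, on 43 UMIs in all. Rps4x was at 957, 1368 and 1176 CPM.

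The naming rule leaves out some proteins of the ribosome. Rpl36al was at 356, 574 and 478 CPM beside 492, 865 and 678.5 CPM for Rpl36a, which codes for nearly the same protein, and it took 42.0%, 39.9% and 41.3% of the pair. Fau, which encodes Rps30 fused to a ubiquitin-like protein, was at 889, 1279 and 1090 CPM, a log2 ratio of 0.52 in I/R over sham. Rack1, a scaffold on the small subunit, was at 916, 1174 and 1062 CPM, a ratio of 0.36.

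Processed pseudogenes can take or lend reads in this family, since 60 of the 81 members have 298 annotated copies with "-ps" names. The median I/R over sham log2 ratio was 0.70 for these 60 and 0.61 for the 21 others, and the SBP over I/R median was -0.34 and -0.31. Over the 81 members the Spearman correlation of the I/R over sham ratio with the total UMIs was -0.19, a description across genes of the same libraries.

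Within each section the share varied from spot to spot. The median spot had 6.23%, 9.73% and 7.79% in the sham, I/R and SBP sections, and the 5th and 95th percentiles were 5.12 and 9.45%, 6.60 and 16.4%, and 5.93 and 12.8%. The I/R spots spread most. Of them, 1077 (51.7%) lay above the sham 95th percentile, against 564 (28.8%) of the SBP spots and by construction 112 (5.01%) of the sham spots. The 40S and the 60S share of a spot went together, with a Spearman correlation of 0.73 over 2234 sham spots, 0.95 over 2082 I/R spots and 0.89 over 1960 SBP spots, where the 2 shares have the UMI total of the spot in common. The correlation of the ribosomal protein share with the mitochondrial share of UMIs was -0.36, -0.79 and -0.59.

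Ankrd1, a stretch-induced protein of the sarcomere that the study used to mark the injured area, divided the spots further. A spot was called Ankrd1-high above 27.0 Ankrd1 UMIs per 10000 UMIs, the sham 95th percentile, which held for 112 sham, 479 I/R and 326 SBP spots. In Ankrd1-high spots ribosomal proteins took 9.42% of non-mitochondrial UMIs against 6.69% in the other spots of sham, 13.3% against 9.98% in I/R and 11.0% against 8.21% in SBP. The log2 ratios were 0.49, 0.42 and 0.42. The share was higher in Ankrd1-high spots of all 3 sections, sham included. Of the 81 members, 66 were called higher there in sham beside 22.9% of the genes tested, 68 in I/R beside 20.0% and 65 in SBP beside 21.3%. Only Rpl3l was called lower in each, beside 6.53%, 10.3% and 9.37% of the genes tested. The members' median ratios were 0.49, 0.43 and 0.44, and those of all genes 0.20, 0.11 and 0.13.

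The members most concentrated in Ankrd1-high spots of sham were Rps26 at 1459 against 729 CPM (log2 ratio 1.0), Rps12 at 1797 against 1000 CPM (0.84) and Rpl3 at 795 against 452 CPM (0.81). In I/R they were Rpl3 at 1337 against 844 CPM (0.66), Rps18 at 1239 against 784 CPM (0.66) and Rpl12 at 1380 against 883 CPM (0.64). In SBP they were Rpl3 at 1306 against 736 CPM (0.83), Rps26 at 1472 against 921.5 CPM (0.68) and Rps12 at 1999 against 1290 CPM (0.63). Only Rpl3 was among the 3 highest of every section. Rpl36 was next to the bottom in each, with log2 ratios of 0.04, 0.16 and 0.13, followed by Rpl7l1 in sham (0.15) and Rps29 in I/R and SBP (0.17 and 0.21).

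Rpl3l was lower in Ankrd1-high spots, at 180 against 340 CPM in sham (log2 ratio -0.92), 102 against 247 CPM in I/R (-1.28) and 128 against 264 CPM in SBP (-1.05). Its share of the Rpl3 pair was 18.4% against 42.9% in sham, 7.07% against 22.6% in I/R and 8.91% against 26.4% in SBP. The shift between the 2 genes was seen inside the sham section as well as between sections. The summed cardiomyocyte markers were also lower in Ankrd1-high spots, at 28668 against 39924 CPM in sham, 23238 against 30458 in I/R and 26485 against 33607 in SBP, while neutrophil markers were at 114 against 50.02, 463 against 420 and 473 against 160 CPM. Fibroblast markers were at 2728 against 1623 CPM in sham, 1546 against 1440 in I/R and 1057 against 1283 in SBP. Macrophage markers were at 753 against 572, 721 against 722 and 555 against 550 CPM in the same order. Red blood cell markers were lower in Ankrd1-high spots, at 1617 against 5939, 5724 against 8017 and 4902 against 7700 CPM. The median spot had 14927 against 10502 UMIs in sham, 17348 against 14103 in I/R and 11990 against 10453 in SBP. The part of these differences in the result was not tested.

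**Figure D2:**
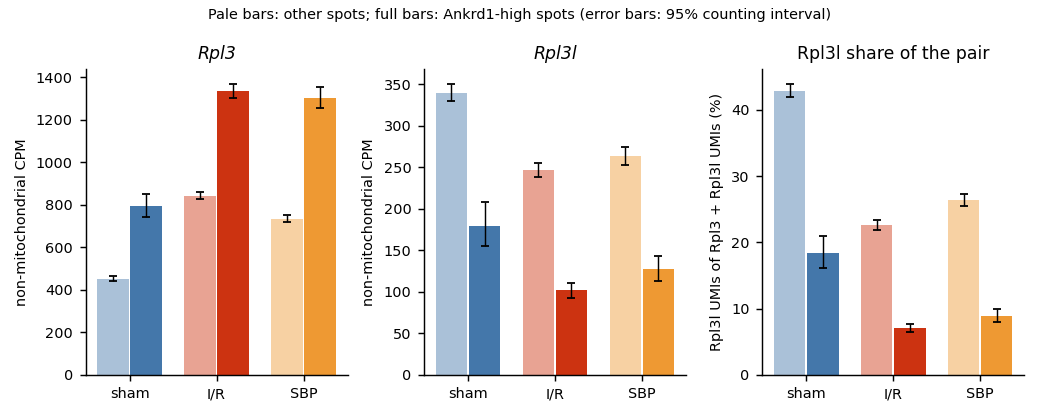
CPM of Rpl3 and Rpl3l and the share of Rpl3l in the UMIs of the pair (y axes) by section, in Ankrd1-high spots (full bars) and the other spots (pale bars), with 95% counting intervals. In every section Rpl3 is higher and Rpl3l lower in the Ankrd1-high spots, and the Rpl3l share is lowest, at 7.07%, in those of I/R.

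The difference between sections was present in both classes of spots. The I/R over sham log2 ratio of the summed share was 0.50 in Ankrd1-high spots and 0.58 in the others, and the SBP over I/R ratio was -0.28 in each. In the SBP section 81.6% of Ankrd1-high spots and 18.2% of the others were above the sham 95th percentile of the share, against 97.3% and 38.1% in I/R. Fewer spots were Ankrd1-high in SBP (16.6%) than in I/R (23.0%), and the share was lower inside each class too. With Ankrd1 per 10000 non-mitochondrial UMIs, 367 of 2082 I/R spots and 284 of 1960 SBP spots were Ankrd1-high, instead of 479 and 326. The gap between the 2 sections was then smaller.

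**Figure D3:**
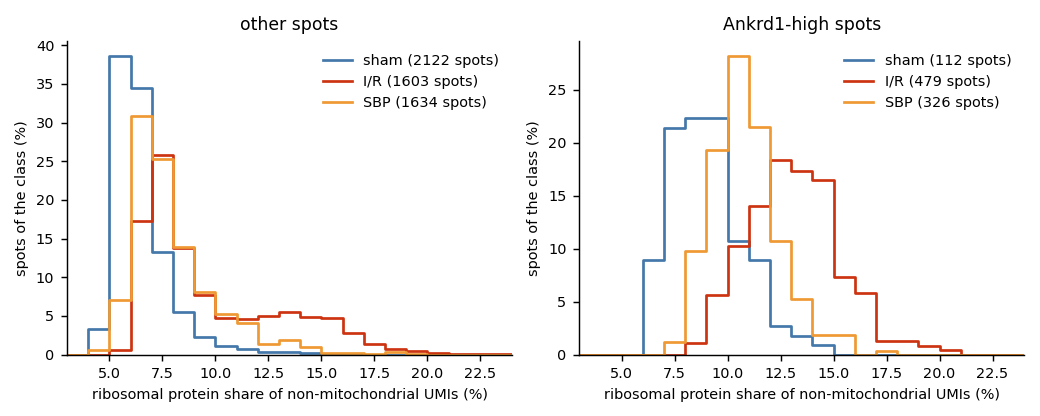
Distribution of the ribosomal protein share of non-mitochondrial UMIs (x axis, bins of 1 percentage point) over spots, as percent of the spots of the class (y axis), for the other spots (left) and the Ankrd1-high spots (right) of each section. The medians of the other spots are 6.17%, 8.41% and 7.36% in the sham, I/R and SBP sections and those of the Ankrd1-high spots 8.84%, 13.1% and 10.8%, and the I/R line in the left panel has a long right shoulder.

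Spots with less heart muscle RNA had more ribosomal protein RNA. Over the spots the Spearman correlation of the ribosomal protein share with the summed cardiomyocyte markers was -0.52, -0.85 and -0.75 in the sham, I/R and SBP sections, where both shares are parts of the same UMI total and a rise of one lowers the other. When the spots were divided at the sham quartiles of these markers, 25% of sham spots, 61.7% of I/R spots and 63.2% of SBP spots fell into the lowest class. That class has no lower limit, and the markers in it summed to 29198, 21551 and 28058 CPM in sham, I/R and SBP. Ribosomal proteins took 8.50%, 12.7% and 9.59% in that class of the sham, I/R and SBP sections. In the highest class they took 6.00%, 7.49% and 6.72%. This division was chosen after the data were seen.

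In the spots at or above the sham 25th percentile of cardiomyocyte markers, 1675, 797 and 721 in the sham, I/R and SBP sections, the share was 6.23%, 7.69% and 6.97%. The I/R over sham log2 ratio was 0.30, less than the 0.66 of whole sections, and 35 of 81 members were called higher beside 5.85% of all genes. The SBP over I/R ratio was -0.14, and 8 were called lower beside 6.14%. The SBP over sham ratio was 0.16, and Rpl3, Rpl10, Rpl35 and Rps18 were the 4 called higher, beside 3.90%. Rpl10 again had the highest I/R over sham ratio there, 1.0, at 367 CPM against 183 in sham, and Rpl35 followed with 0.81. The order sham, SBP, I/R of the summed share was the same in each of the 4 quartile classes, with I/R over sham ratios of 0.57, 0.29, 0.25 and 0.32 from the lowest to the highest. Single members kept this order less uniformly than in whole sections. In the spots at or above the percentile, 76 of 81 were on the high side in I/R over sham, 10 in SBP over I/R and 79 in SBP over sham. The 8 called lower in SBP over I/R and the 4 called higher in SBP over sham in these spots were near the background.

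Rpl3l did not keep its I/R over sham difference in these spots. It was at 375 CPM in sham and 357 in I/R, a log2 ratio of -0.07 with an interval that includes 0 (-0.15 to 0.01). In SBP it was at 321 CPM, a ratio of -0.23 over sham (-0.32 to -0.13). Its SBP over I/R ratio there was -0.16 (-0.26 to -0.05), while that of whole sections was above 0. In the spots below the percentile Rpl3l was at 213, 125 and 198 CPM in the sham, I/R and SBP sections. The cardiomyocyte markers of those spots also summed lowest in I/R, at 29198, 21551 and 28058 CPM in the same order. By this division the low Rpl3l level of the I/R section was found in the spots with little cardiomyocyte marker RNA. Other divisions of the spots did not place it so. At the sham quartiles of the summed markers of other cell types, its I/R over sham ratio was -0.31, -0.76, -0.74 and -1.29 from the lowest to the highest class. In Ankrd1-high spots that ratio was -0.82 and in the other spots -0.46. Rpl3 in the spots at or above the percentile was at 393, 482 and 548 CPM in the sham, I/R and SBP sections, so that there SBP stood highest.

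**Figure D4:**
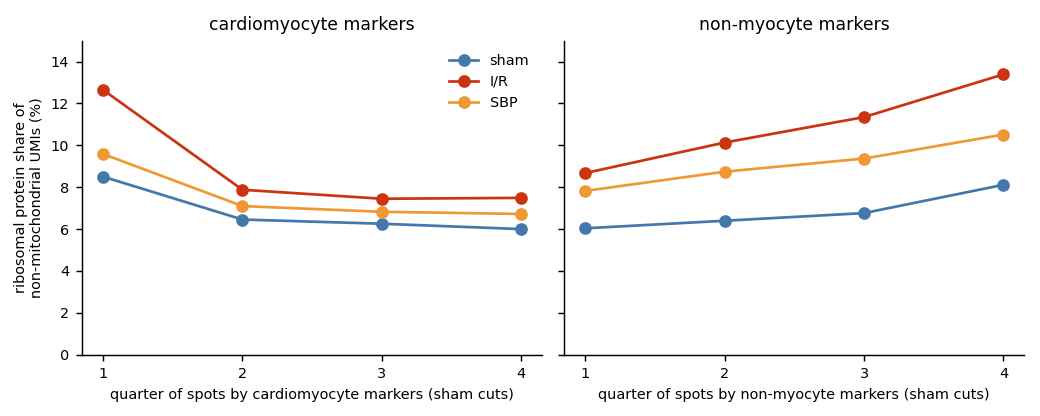
Ribosomal protein share of non-mitochondrial UMIs (y axis) in spots divided at the sham quartiles of the summed cardiomyocyte markers (left) and of the summed markers of other cell types without blood genes (right), by section. The 95% counting intervals are smaller than the points. I/R lies above SBP and SBP above sham in all 8 comparisons. In the left panel the gap is widest in the lowest class, where the cardiomyocyte markers themselves summed lowest in I/R.

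Markers of some other cells moved with the share too. Over I/R spots its Spearman correlation with the 5 neutrophil markers was 0.68, with macrophage markers 0.48, with smooth muscle markers 0.35, with fibroblast markers 0.11, with B and T cell markers 0.07 and with endothelium markers -0.13. Over sham spots, in the same order, it was 0.24, 0.34, 0.19, 0.47, -0.0028 and -0.07, so that fibroblast markers had the highest value there, and over SBP spots it was 0.46, 0.29, 0.20, 0.22, 0.06 and -0.10. For red blood cell markers the correlation was -0.13, -0.22 and -0.15 over sham, I/R and SBP spots. In the 10% of I/R spots with the most neutrophil marker RNA the share was 14.9%, and in the rest it was 10.6%. In sham these shares were 8.42% and 6.72%. Divided likewise by macrophage markers, they were 13.8% and 10.6% in I/R and 8.73% and 6.66% in sham. By fibroblast markers they were 12.2% and 10.8% in I/R and 8.53% and 6.66% in sham, and by smooth muscle markers 13.5% and 10.6%, and 7.53% and 6.83%. By endothelium markers they were 10.6% and 11.0% in I/R and 6.56% and 6.94% in sham, and by red blood cell markers 9.52% and 11.1%, and 6.49% and 6.95%. Divided at the sham quartiles of the summed markers of fibroblasts, endothelium, macrophages, neutrophils, smooth muscle, B and T cells, the I/R over sham ratio was 0.52, 0.66, 0.75 and 0.72 from the lowest to the highest class, and the SBP over I/R ratio -0.15, -0.21, -0.28 and -0.35. None of the 5 neutrophil markers was at 0 in any section, and the part of these cells in the shares was not tested.

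Genes that serve the ribosome were examined by lists. Of 63 ribosome assembly genes, 49 were called higher and none lower in I/R over sham, beside 30.2% and 13.1% of all genes, with a median log2 ratio of 0.59 beside 0.13 for all genes. In SBP over I/R 34 were called lower, beside 23.2%, and none higher (median -0.35 beside -0.11). In SBP over sham 17 were called higher, beside 10.1%, and 1, Lsg1, lower, beside 7.72% (0.24 beside 0.02). Nhp2, a protein of H/ACA particles that modify ribosomal RNA, was at 54.5, 135 and 82.0 CPM in the sham, I/R and SBP sections, a ratio of 1.31. Heatr1, of the small-subunit processome, was at 7.98, 17.5 and 9.91 CPM, and Ppan, of 60S maturation, at 12.6, 27.0 and 15.2 CPM, the lowest of the list in SBP over I/R with -0.82. Rrp12 was at 19.8, 35.4 and 31.4 CPM, the highest of the list in SBP over sham with 0.67. Rrp1 and Gnl3l were the lowest in I/R over sham, at -0.11 and -0.10 with intervals that include 0.

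Of 19 other messengers known or thought to carry a TOP tract, 11 were called higher and none lower in I/R over sham, beside 30.2% and 13.1% of all genes (median 0.36). In SBP over I/R none was called higher and 6 lower, beside 23.2% (-0.23), a count not far from the background, and in SBP over sham 4 were called higher, beside 10.1% (0.23). The list holds Fau and Rack1. Npm1, a nucleolar chaperone, was at 131, 301 and 187 CPM, ratios of 1.20 and -0.69. Eef1a1, which brings aminoacyl-tRNA to the ribosome, was at 1089, 2118 and 1483 CPM, ratios of 0.96 and -0.51. Pabpc1, the poly(A)-binding protein, was at 215, 409 and 273 CPM, with -0.58 in SBP over I/R. Eef2, the translocation factor, and Eef1d went slightly the other way, Eef2 at 1622, 1471 and 1782 CPM and Eef1d at 498, 426 and 499 CPM. By these values the list was less uniform than the ribosomal proteins.

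Of 38 initiation and elongation factors, some of them also in the TOP list, 18 were called higher and 3 lower in I/R over sham, beside 30.2% and 13.1% of all genes (median 0.30). In SBP over I/R 1 was called higher and 10 lower, beside 7.32% and 23.2% (-0.14), and in SBP over sham 5 were called higher, beside 10.1% (0.17). The 10 and the 5 were near the background. Eef1e1 (15.3, 31.3 and 19.5 CPM) and Eif1a (27.7, 55.3 and 36.8 CPM) had the highest I/R over sham ratios, 1.03 and 1.0. Eif4a1, the helicase of cap-dependent initiation, was at 262, 517 and 382 CPM and had the highest SBP over sham ratio of the list, 0.54. Eif5b was at 90.3, 67.4 and 77.2 CPM, a ratio of -0.42 in I/R over sham, and Eef1a2, the muscle form of Eef1a1, at 2013, 1342 and 1872 CPM, a ratio of -0.58.

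Regulators of mTORC1 and of TOP messengers had few calls, in both directions. Of 20, 4 were called higher and 2 lower in I/R over sham, beside 30.2% and 13.1% of all genes (median 0.04 beside 0.13). In SBP over I/R 3 were called higher and 1 lower, beside 7.32% and 23.2% (-0.03 beside -0.11). In SBP over sham 4 were called higher and 1 lower, beside 10.1% and 7.72% (0.09 beside 0.02). The counts in I/R over sham and the 1 lower in SBP over sham were not far from the background. Eif4ebp1, which holds back cap-dependent initiation until mTORC1 phosphorylates it, was at 105, 167 and 163 CPM, with ratios of 0.67 in I/R over sham and -0.03 in SBP over I/R. Tsc2, a brake of mTORC1, was at 115, 86.0 and 110 CPM, ratios of -0.42 and 0.35. Larp1 was at 66.8, 79.8 and 71.2 CPM, with no call in any comparison. Myc, a transcription factor that drives ribosome building and that is named here after its values were seen, rests on 61, 324 and 107 UMIs and was at 4.73, 19.2 and 9.22 CPM, ratios of 2.03 (1.63 to 2.45) and -1.06 (-1.39 to -0.74).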

How the data were processed

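Visium libraries of 1 section per condition were used, and single-nucleus data were not used here. The authors deposited raw UMI counts per gene and spot over tissue, made with Space Ranger 1.3.0 per the labels on build mm10, while the methods of the study name another version and a human reference. All 81 member identifiers were found in GENCODE M21. Spots needed 200 or more detected genes, and genes 100 or more UMIs over the 3 sections. Counts were summed over spots and divided by the non-mitochondrial total. Intervals at 95% were exact Poisson (levels), Clopper-Pearson (shares) and exact conditional binomial (ratios). The calculation of ratios was checked on simulated counts with Poisson error only. That check covers no spread between spots, sections or mice. Groups came from the treatment labels. No doublet caller or clustering was run.

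Named were the 5 highest and 5 lowest members of each comparison and the 3 highest and 3 lowest of each section's Ankrd1 contrast (500 or more UMIs), fixed members and paralogues, and the 2 highest and 2 lowest of each list. Some genes that this rule names are not reported here. The members and lists were chosen with earlier results of these data known. Alternatives covered the denominator, TMM factors (edgeR 4.0.16, R 4.3.3), median-of-ratios factors, spot filters, spot weights, the fold, the minimum of UMIs and the Ankrd1 threshold. Sums and intervals were made in Python 3.11.15 with pandas 2.3.3, scipy 1.17.1 and numpy 2.4.6, and plots with matplotlib 3.10.9.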

Additional observations from a re-analysis of the deposited data

How the results depend on the processing

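No paired analysis was possible because only 1 section stands for each condition, so no replicate could be left out and no spread between mice is known. No summed ratio or Ankrd1 contrast changed sign under any alternative run, but 48 values of the summed ratios, call counts and Ankrd1 contrasts moved beyond their counting interval or, for counts, beyond 1.5 times, while 51 did not. For values of named genes, 223 moved and 83 did not. The summed I/R over sham, SBP over I/R and SBP over sham log2 ratios were 0.78, -0.38 and 0.40 with all UMIs as denominator, 0.55, -0.22 and 0.33 with TMM factors, 0.54, -0.22 and 0.33 with median-of-ratios factors, and 0.67, -0.34 and 0.33 without the 1% of spots with the highest share. With each spot at equal weight the first was 0.67 and the third 0.35. Without the 5 members with the most UMIs the first was 0.66 and the second -0.32. In 2 alternatives chosen after seeing the data they were 0.30, -0.14 and 0.16 in spots at or above the sham 25th percentile of cardiomyocyte markers, and 0.59, -0.20 and 0.39 in spots below the sham median of non-myocyte markers.

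The number of members called lower in SBP over I/R was 43 as reported, 16 with TMM factors and 14 with median-of-ratios factors. It was 1 at 1.5-fold, 15 in the spots low in non-myocyte markers and 8 in those rich in cardiomyocyte markers. Of all genes, 23.2%, 15.5%, 15.2%, 10.4%, 9.08% and 6.14% were called lower in the same order. With median-of-ratios factors 1 member was called higher in SBP over I/R, beside 12.9% of all genes. At 1.5-fold 3 members were called higher and 0 lower in SBP over sham, beside 3.87% and 3.01% of all genes. In the spots rich in cardiomyocyte markers 35 were called higher and 0 lower in I/R over sham, beside 5.85% and 9.0% of all genes. In SBP over sham 4 were called higher and 0 lower there, beside 3.90% and 7.67%. The cause of these moves was not tested.

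The Ankrd1 contrast in sham, I/R and SBP was 0.48, 0.49 and 0.46 at the 90th percentile, 0.42, 0.32 and 0.38 with Ankrd1 per non-mitochondrial UMIs, 0.59, 0.55 and 0.50 with all UMIs as denominator, and 0.48, 0.42 and 0.45 with equal weight. After thinning spots to 6500 UMIs it was 0.44 in I/R and 0.41 in SBP. Of 102 values of named genes, 4 changed sign with TMM factors, 4 with median-of-ratios factors and 0 with all UMIs.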

Other observations

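Mitochondrial ribosomal proteins, which build the separate ribosome of the organelle, had other values than the cytosolic ones. Of 78 such genes, 7 were called higher and 6 lower in I/R over sham, 1 higher and 7 lower in SBP over I/R, and 2 higher and 7 lower in SBP over sham, with median log2 ratios of -0.05, -0.07 and -0.08. Of all genes, 30.2% were called higher and 13.1% lower in I/R over sham, 7.32% and 23.2% in SBP over I/R, and 10.1% and 7.72% in SBP over sham, so the 7 lower in the last were near the background. Their summed level was 8847, 8687 and 8289 CPM in the sham, I/R and SBP sections.

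In the elongation factor pair Eef1a1 and Eef1a2, the second, the form of muscle and neurons, took 64.9%, 38.8% and 55.8% of the UMIs of the pair in the sham, I/R and SBP sections. In Ankrd1-high spots it took 49.0%, 30.1% and 44.1%, and in the other spots 66.3%, 43.1% and 58.9%.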
